A study of Mus musculus with 12 samples.

Results

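The genes described here are 33 mouse genes of fatty acid synthesis and triglyceride storage, listed by name among 24421 entries of an RNA-seq table. They were sorted into 9 roles, from the supply of acetyl-CoA through palmitate synthesis, elongation, desaturation and glycerolipid assembly to the lipid droplet, its lipolysis and fatty acid uptake. The cells were sorted regulatory T cells (Treg cells, the Foxp3-expressing CD4 T cells that restrain immune responses) of C57BL/6 mice aged 7 weeks, either unstimulated or kept for 48 h on plates that carried antibodies against CD3 and CD28, the T cell receptor and its costimulatory partner (5 µg/ml), while the growth factor IL-2 was present at 200 U/ml. WT mice are labelled only as WT, with no word on whether they carry Foxp3Cre. In KO mice both alleles of Batf, a lymphocyte transcription factor of the AP-1 family, are floxed and Cre comes from Foxp3Cre, so deletion takes place in cells that express Foxp3. Each of the 4 groups (WT and KO, unstimulated and 48 h) held 3 libraries, numbered 1 to 3. No label ties the libraries to separate animals, so p-values measure only the spread between libraries, which may be technical.

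Fatty acids are built in the cytosol from acetyl-CoA that is cut from exported citrate, lengthened and desaturated on the endoplasmic reticulum, and joined to glycerol phosphate. The path runs through lysophosphatidic acid, phosphatidic acid and diacylglycerol, which either enters phospholipids or receives a last acyl chain to become triglyceride. Triglyceride is kept in lipid droplets and released again by lipases, and T cells raise lipid synthesis when they leave rest and build membrane.

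The reads assigned to genes numbered 22731823 to 32055383 in a library. Values are RPKM (reads per kilobase of exon, scaled to the assigned reads of the library), so levels can be compared between genes, and each group is given as its 3 libraries or as mean ± SD with n = 3. Batf ran from 90.0 to 103 RPKM in unstimulated WT libraries and from 25.9 to 46.9 in unstimulated KO libraries, and from 125 to 134 against 18.0 to 26.5 at 48 h. The labels do not say which exons are floxed, so the reads that remain do not measure how complete the deletion was. The KO library numbered 1 had the most Batf of the KO libraries in both states, and without stimulation it had the highest summed level of 6 B cell markers (85.8 RPKM, against 37.4 to 43.3 in WT and down to 42.3 in KO). Y-linked transcripts were found only in the WT libraries numbered 1 and 2 of both states. The WT libraries numbered 3 therefore did not come from the same animals as those. No KO library had these transcripts, so the genotypes were not balanced for them. For most genes named below, it is said where leaving out those 4 libraries, or the KO libraries numbered 1, ends a call or moves a value by more than 1.5 times. Several marker lists moved with genotype. The 7 Treg and T cell markers summed to 1441 to 1530 RPKM in WT against 1329 to 1379 in KO without stimulation, and to 899 to 952 against 683 to 726 at 48 h. The 8 dendritic cell markers, mostly Cd74, summed to 148 to 175 against 176 to 264, and to 25.9 to 29.6 against 34.1 to 46.1 at 48 h. The 12 myeloid markers summed to 31.4 to 38.9 against 21.4 to 23.3, and to 3.04 to 3.67 against 0.867 to 1.88 at 48 h. These lists also summed lower at 48 h than without stimulation in both genotypes. So did the 6 B cell markers, at 2.87 to 4.35 RPKM in WT and 3.63 to 7.97 in KO at 48 h. The part of the marker lists in the differences below, between genotypes or between states, was not tested. The 6 adipocyte markers summed to at most 1.77 RPKM, with Lep, Plin1 and Cfd at 0 in all 12 libraries. In bulk RNA, fewer cells of a type and less RNA per cell cannot be told apart.

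Of the 33 genes, 27 reached 1 RPKM in at least 3 libraries and were tested; the other 6 (Me1, Acacb, Elovl7, Mgll, Lpl and Cd36) stayed at or below 0.475 RPKM everywhere. Fads2 passed that filter only through the stimulated libraries, so it had to differ between states. The test was limma on log2(RPKM + 1) over all 10406 genes tested, with p-values adjusted by Benjamini-Hochberg over those genes and a threshold of 0.05. Log2 changes below are on that scale with their standard error (SE), and they understate the change of genes with low values. The genotype and stimulation comparisons share libraries and are not independent of one another.

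**Figure D1:**
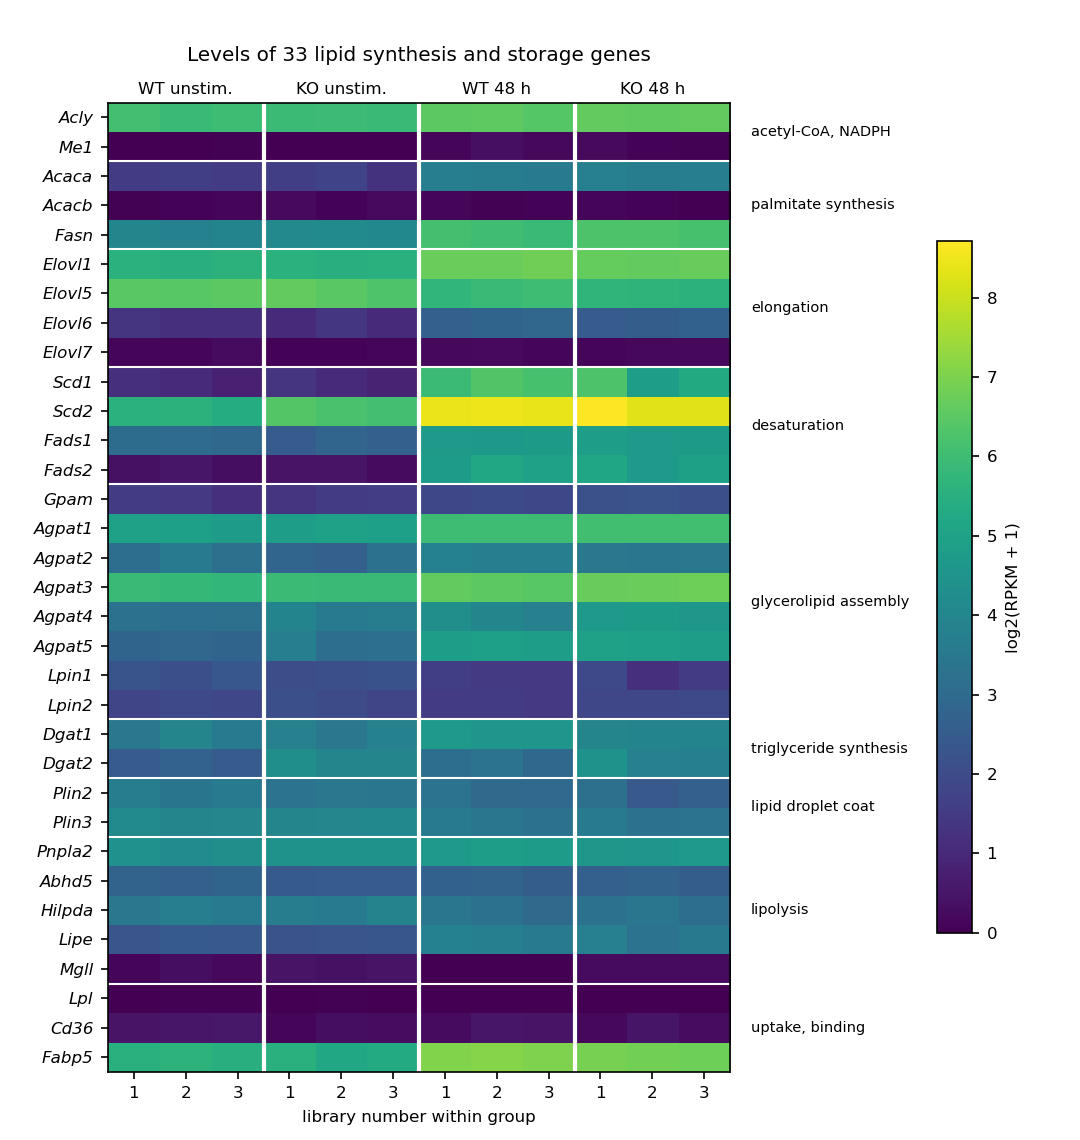
Colour shows log2(RPKM + 1) of 33 lipid synthesis and storage genes (rows, grouped by role) in 12 libraries (columns, 3 in each of 4 groups). Scd2 is the brightest row at 48 h, and Scd1 and Fads2 turn from dark to bright between the unstimulated and the 48 h libraries of both genotypes.

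Most of these genes differed between states. The 48 h libraries differed from the unstimulated ones in antibodies, IL-2 and time on plates together. No culture time, antibody or IL-2 is given for the unstimulated libraries, so these parts cannot be told apart. Stimulation here means all of them together. In WT cells 26 of the 27 tested genes passed the threshold, 20 higher and 6 lower at 48 h, where 79.9% of all tested genes passed (44.5% higher and 35.4% lower). In KO cells 22 passed, 17 higher and 5 lower, against 78.8% of all tested genes (44.3% higher and 34.6% lower). The share of members called is therefore near the high background, and what can be read is the size and the direction of the changes: the median log2 change of the tested members was 0.81 in WT and 0.85 in KO, beside 0.106 and 0.117 over all genes. All 4 desaturases and the tested genes of acetyl-CoA supply and palmitate synthesis rose in both genotypes, while both droplet coat genes fell. These counts and medians include Fads2, whose difference between states was fixed by the filter. The members were chosen with earlier results of these data known, so the medians are only a description. Other genes of the same pathways, of which 66 were tested, had median log2 changes of 0.431 in WT and 0.411 in KO.

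The first steps rose unequally. Acly, which cuts citrate into acetyl-CoA, was already abundant without stimulation, at 63.3 ± 4.94 RPKM in WT cells and 60.0 ± 2.41 in KO cells, and rose to 89.1 ± 5.10 and 96.2 ± 0.581. Acaca, the cytosolic carboxylase that makes malonyl-CoA, rose from 1.93 ± 0.145 to 11.7 ± 0.728 RPKM in WT (log2 change 2.11, SE 0.11, limma adjusted p = 7.85e-10) and from 1.96 ± 0.480 to 12.3 ± 0.385 in KO (log2 change 2.18, SE 0.11, limma adjusted p = 6.72e-10). Acacb, its paralog at the mitochondrial membrane, stayed at or below 0.18 RPKM in all libraries, and the NADPH-producing Me1 reached at most 0.28.

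Fasn, the synthase that builds palmitate from malonyl-CoA, lies at chr11:120805958-120824547 on the minus strand (mm10). It stood at 15.0, 13.3 and 14.2 RPKM in unstimulated WT, 16.0, 17.2 and 15.9 in unstimulated KO, 68.8, 64.4 and 58.3 in stimulated WT and 75.6, 77.1 and 71.2 in stimulated KO. Every stimulated library lay above every unstimulated one, and in each state the 3 KO libraries lay above the 3 WT libraries. The rise with stimulation was 2.10 in WT (SE 0.073, limma adjusted p = 2.61e-11) and 2.12 in KO (SE 0.073, limma adjusted p = 2.98e-11) on the log2 scale. The KO difference did not pass the threshold in either state (log2 change 0.19, limma adjusted p = 0.111 without stimulation, and 0.22, limma adjusted p = 0.0514 at 48 h). The second fell under the threshold in 6 of 21 alternative fits, over which the adjusted p ran from 0.0221 to 0.213.

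The sequence before the Fasn start is shown because Fasn is a textbook target of the lipogenic factors SREBP and NF-Y. It is the RefSeq window of 300 bases (GRCm38.p6, 250 before to 50 after the start, chr11:120824498-120824797, minus strand), with capitals at the letters CCAAT or their reverse complement, the core that NF-Y binds.
Fasn: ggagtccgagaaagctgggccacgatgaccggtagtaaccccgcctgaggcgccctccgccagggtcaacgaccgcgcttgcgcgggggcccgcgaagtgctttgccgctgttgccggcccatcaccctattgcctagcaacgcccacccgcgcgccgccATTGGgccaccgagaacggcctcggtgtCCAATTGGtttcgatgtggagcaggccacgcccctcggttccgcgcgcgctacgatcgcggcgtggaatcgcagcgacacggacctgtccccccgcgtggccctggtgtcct
The first bases of its 3 CCAAT matches lie 90, 62 and 59 bases before the start, and the last pair share letters. The 25 members with a RefSeq window have 34 windows, since a gene can have several starts. CCAAT was found in 13 of these 34 windows and in 37.4% of all 32851 windows, and the sterol regulatory element letters TCACNCCAC in 0 of the 34 and 1.24% of all. No window was searched for Scd1, Scd2, Fads1, Agpat5, Dgat1, Dgat2, Lpl and Fabp5. A match is a description of letters and not a binding site, and no match says only that these letters are not in this window.

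The elongases split. Elovl1, which extends saturated chains to very long ones, rose from 45.6 ± 1.85 to 106 ± 4.22 RPKM in WT and from 44.9 ± 1.23 to 99.4 ± 1.67 in KO; its exons share 52 bases with Cdc20 on the other strand, and whether strand was used in counting is not given. Elovl6, which carries palmitate to stearate, rose from 1.36 ± 0.105 to 5.91 ± 0.512 RPKM in WT and from 1.25 ± 0.309 to 5.05 ± 0.393 in KO. Elovl5, which extends polyunsaturated chains, was the most abundant elongase before stimulation and fell. It was at 88.7, 86.3 and 91.5 RPKM in unstimulated WT and 51.7, 58.3 and 63.9 at 48 h, and at 96.6, 88.9 and 78.1 in unstimulated KO and 51.5, 50.2 and 46.8 at 48 h. All stimulated libraries lay below all unstimulated ones, and the genotypes overlapped without stimulation. The fall was −0.61 on the log2 scale in WT (SE 0.087, limma adjusted p = 1.94e-05) and −0.81 in KO (SE 0.087, limma adjusted p = 1.27e-06), the deepest fall among the tested members in KO. Elovl7 stayed at or below 0.19 RPKM.

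All 4 desaturases rose, and they included the largest responses of the tested members. Scd1 and Scd2 put the first double bond into stearate and palmitate, and Fads2 and Fads1 act in turn on polyunsaturated chains. Fads2 was at 0.30, 0.46 and 0.25 RPKM in unstimulated WT and 0.38, 0.38 and 0.20 in unstimulated KO, and at 26.7, 36.6 and 30.4 in stimulated WT and 33.8, 25.3 and 29.8 in stimulated KO. The stimulated mean was 93.1 times the unstimulated one in WT and 93.0 times in KO. The estimated log2 changes were 4.59 (SE 0.13) and 4.53 (SE 0.13). No p-value is given for them, since the filter fixed that Fads2 differs between states. No difference between genotypes was detected for Fads2: the 95% interval of the log2 difference was −0.30 to 0.26 without stimulation and −0.35 to 0.21 at 48 h. At unstimulated levels of 0.20 to 0.46 RPKM this scale shrinks differences, so the first interval does not bound the fold difference closely.

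Scd1 stood at 1.24, 1.11 and 0.75 RPKM in unstimulated WT and 1.47, 1.11 and 0.77 in unstimulated KO, so its libraries overlapped. At 48 h it reached 59.8, 80.2 and 71.6 RPKM in WT and 77.3, 28.6 and 38.3 in KO. The KO library numbered 1 lay among the WT libraries, and the other two lay below all of them. The rise was 5.13 in WT (SE 0.27, limma adjusted p = 7.67e-10) and 4.42 in KO (SE 0.27, limma adjusted p = 3.68e-09) on the log2 scale. The difference between genotypes at 48 h was −0.66 (SE 0.27, limma adjusted p = 0.105) with all libraries and −1.06 (limma adjusted p = 0.00187) without the KO library numbered 1. The adjusted p ran from 0.00117 to 0.372 over 21 alternatives.

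Scd2, at chr19:44293676-44306862 on the plus strand, was the most abundant of the 33 genes at 48 h, and rose from rank 1765 to rank 208 among 24394 entries by mean RPKM in WT. It measured 46.3, 47.7 and 40.8 RPKM in unstimulated WT and 81.7, 73.0 and 67.2 in unstimulated KO, where all KO libraries lay above all WT ones. At 48 h the values were 352, 362 and 339 RPKM in WT and 417, 322 and 318 in KO, with 1 KO library above and the other two below the WT range. Without stimulation Scd2 was higher in KO cells by 0.71 (SE 0.10, limma adjusted p = 0.00100), and at 48 h the difference was −0.0041 (95% interval −0.23 to 0.22). The 2 responses, 2.94 in WT and 2.23 in KO, differed by −0.71 (interaction, SE 0.15, limma adjusted p = 0.0177). Scd2 and Dgat1, below, were the 2 of 27 tested members that passed for this difference, both lower in KO, where 4.62% of all tested genes passed (2.37% higher and 2.25% lower). Without the WT libraries numbered 1 and 2 the unstimulated difference was 0.84 with an adjusted p of 0.0629 and the interaction −0.80 with an adjusted p of 0.185, both in limma. The interaction was also lost without unstimulated WT library 3 (limma adjusted p = 0.0521) or stimulated KO library 3 (limma adjusted p = 0.0543). How reads that match both Scd1 and Scd2 were counted is not given.

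Fads1, at chr19:10182888-10196872 on the plus strand, was at 7.40, 7.21 and 6.44 RPKM in unstimulated WT and 4.77, 6.18 and 5.40 in unstimulated KO. At 48 h it was at 25.4, 24.0 and 25.9 RPKM in WT and 27.9, 24.8 and 25.7 in KO, where the groups overlapped. It was the 1 member lower in unstimulated KO cells (log2 change −0.32, SE 0.088, limma adjusted p = 0.0384). That call was kept in 5 of 21 alternatives, with adjusted p from 0.0123 to 0.519, and without the KO libraries numbered 1 the change was −0.24 (limma adjusted p = 0.133). The call also ended without the WT libraries numbered 1 and 2.

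**Figure D2:**
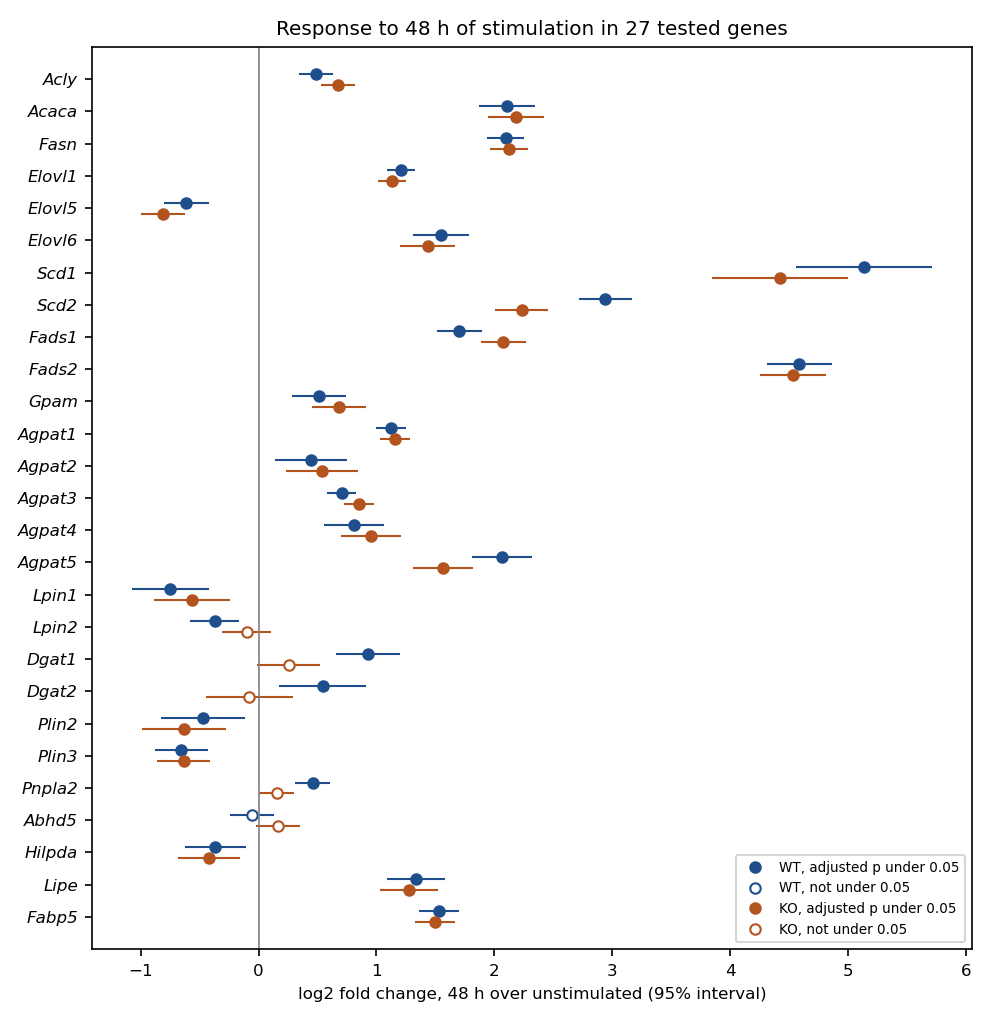
Points show the log2 fold change between 48 h and unstimulated libraries (horizontal axis, log2(RPKM + 1) scale) of 27 tested genes in WT (blue) and KO (orange), with 95% intervals, and filled points have an adjusted p under 0.05. Scd1 and Fads2 lie above 4 in both genotypes, and the filled points below 0 belong to Elovl5, Lpin1, Lpin2, Plin2, Plin3 and Hilpda.

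Genotype changed fewer members. Without stimulation 5 of 27 passed the threshold, 4 higher in KO (Dgat2, Scd2, Agpat5 and Agpat4) and 1 lower (Fads1), where 10.2% of all tested genes passed (4.35% higher and 5.83% lower). At 48 h 5 of 27 passed, 4 higher (Dgat2, Agpat4, Lpin2 and Agpat3) and 1 lower (Dgat1), against a background of 17.6% (7.76% higher and 9.81% lower). The median log2 change of the tested members was −0.002 without stimulation and −0.004 at 48 h, beside −0.021 and −0.004 over all genes. Both medians, and the share of members called at 48 h, were thus near the background. The 8 different genes called in either state were 2 desaturases, 4 genes of glycerolipid assembly and both triglyceride synthases, a tally by role that was not tested.

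Triglyceride synthesis held the largest genotype difference. Dgat1 and Dgat2 are unrelated enzymes that both add the last acyl chain to diacylglycerol. Dgat2, at chr7:99153663-99182713 on the minus strand, was at 4.60, 5.60 and 4.80 RPKM in unstimulated WT and 19.2, 14.5 and 14.6 in unstimulated KO. At 48 h it was at 7.95, 8.96 and 6.43 RPKM in WT and 20.7, 12.9 and 12.7 in KO. The KO libraries lay above the WT libraries in both states, and the KO library numbered 1 was the highest each time. The log2 difference was 1.50 (SE 0.17, limma adjusted p = 0.000151) without stimulation and 0.88 (SE 0.17, limma adjusted p = 0.00365) at 48 h, and both passed in all 21 alternatives. Without the KO libraries numbered 1 they were 1.37 (limma adjusted p = 4.5e-05) and 0.66 (limma adjusted p = 0.00387). Dgat2 rose with stimulation in WT (log2 change 0.54, SE 0.17, limma adjusted p = 0.0102, and 0.36 with adjusted p = 0.349 without the WT libraries numbered 1 and 2) and was not called in KO (−0.079, 95% interval −0.45 to 0.29). The responses differed by −0.62 (limma adjusted p = 0.178), or by −0.71 (limma adjusted p = 0.0464) without the KO libraries numbered 1. With a block by genotype and library number this difference also passed (limma adjusted p = 0.0284). It passed in 3 of 21 alternatives.

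Dgat1, at chr15:76502015-76511818 on the minus strand, went the other way at 48 h. Its unstimulated libraries overlapped, at 10.1, 14.7 and 11.3 RPKM in WT and 12.9, 9.90 and 13.1 in KO. At 48 h the WT libraries were at 25.4, 22.6 and 22.8 RPKM and the KO libraries at 14.6, 14.3 and 14.2, all below. The log2 difference at 48 h was −0.68 (SE 0.12, limma adjusted p = 0.00250) and passed in all 21 alternatives. Dgat1 rose with stimulation in WT (0.93, SE 0.12, limma adjusted p = 1.09e-05), and in KO the change was 0.25 (SE 0.12, limma adjusted p = 0.0759), which passed without unstimulated KO library 3 (0.0466) or unstimulated WT library 2 (0.0344). The responses differed by −0.67 (SE 0.18, limma adjusted p = 0.0478), a call kept in 3 of 21 alternatives, with adjusted p from 0.0166 to 0.209. Among the fits that lost this call were the one without the WT libraries numbered 1 and 2 and the one with a block by genotype and library number.

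As a description of these values, Dgat2 stood at 0.380 to 0.455 times Dgat1 in unstimulated WT libraries and at 1.11 to 1.49 times in unstimulated KO libraries. At 48 h the ratio was 0.282 to 0.396 in WT and 0.893 to 1.41 in KO. Without stimulation the 2 genes together came to 14.7 to 20.3 RPKM in WT libraries and 24.4 to 32.1 in KO libraries. At 48 h they came to 29.2 to 33.4 and 26.8 to 35.3 RPKM, so the summed level overlapped between genotypes at 48 h while the ratio did not.

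**Figure D3:**
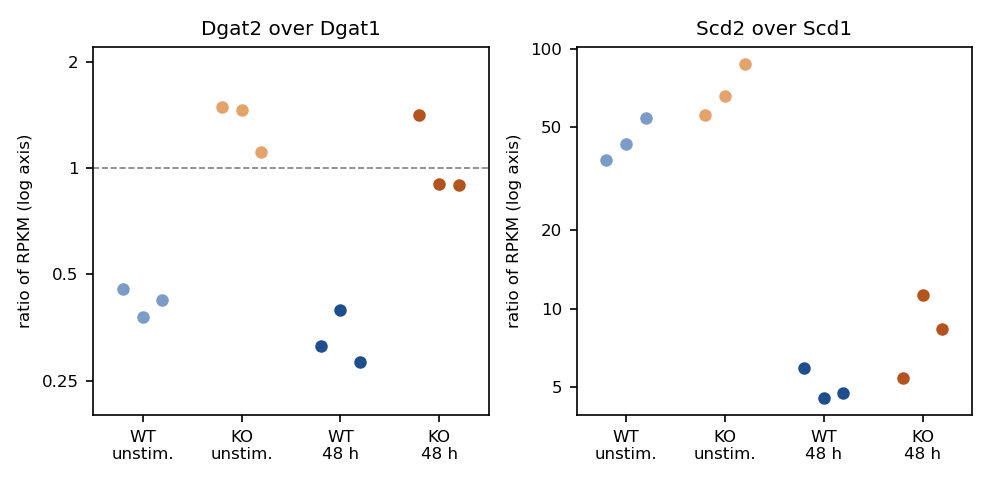
Each point is the ratio of RPKM of a pair of enzymes in 1 library (vertical log axis), Dgat2 over Dgat1 on the left and Scd2 over Scd1 on the right, for 4 groups of 3 libraries. Every KO library lies above every WT library of either state for Dgat2 over Dgat1 (lowest KO 0.893, highest WT 0.455), and Scd2 over Scd1 drops from at least 37.3 without stimulation to at most 11.3 at 48 h.

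Glycerolipid assembly held 8 members, all tested. Gpam, which starts the path on the mitochondrial surface, rose in both genotypes, to 2.76 ± 0.120 RPKM in WT and 3.54 ± 0.153 in KO. The AGPAT enzymes add the second acyl chain or act on related lysophospholipids. Agpat3 and Agpat1 were the most abundant of them, and Agpat1 rose from 28.7 ± 1.73 to 63.6 ± 0.372 RPKM in WT with no genotype difference past the threshold. Agpat1 shares 100 exon bases with Egfl8 on the other strand.

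Agpat4, at chr17:12119284-12219640 on the plus strand, was at 8.79, 8.03 and 8.23 RPKM in unstimulated WT and 14.1, 11.0 and 12.0 in unstimulated KO, and at 18.8, 15.0 and 13.0 in stimulated WT and 25.3, 25.6 and 23.3 in stimulated KO. The KO libraries lay above the WT libraries in both states. The log2 difference was 0.51 (SE 0.12, limma adjusted p = 0.0157) without stimulation and 0.65 (SE 0.12, limma adjusted p = 0.00211) at 48 h. The second passed in all 21 alternatives and the first in 16 of them; without the KO libraries numbered 1 the first was 0.42 (limma adjusted p = 0.0719), and without the WT libraries numbered 1 and 2 it was 0.53 (limma adjusted p = 0.140).

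The sequence before the Agpat4 start is shown because Agpat4 was called between genotypes in both states and its window holds the letters of the AP-1 motif, AP-1 being the family Batf belongs to (RefSeq, GRCm38.p6, chr17:12119034-12119333, plus strand). Capitals mark TGANTCA, which reads alike on both strands, and CCAAT or its reverse complement.
Agpat4: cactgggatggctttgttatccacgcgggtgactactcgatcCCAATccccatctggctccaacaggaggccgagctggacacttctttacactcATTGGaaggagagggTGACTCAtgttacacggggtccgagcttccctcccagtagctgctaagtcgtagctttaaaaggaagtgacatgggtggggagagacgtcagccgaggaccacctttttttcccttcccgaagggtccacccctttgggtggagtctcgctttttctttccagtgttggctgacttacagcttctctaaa
Its 1 TGANTCA match begins 140 bases before the start, and its 2 CCAAT matches begin 208 and 155 bases before it. TGANTCA was found in 4 of the 34 member windows (those of Me1, Agpat4 and Hilpda) and in 7.81% of all windows. The Hilpda windows overlap and hold the same match, so by gene it was found in 3 of 25. The E-box letters CACGTG were found in 5 of the 34 windows and 7.15% of all. Me1 was not tested and Hilpda was not called between genotypes.

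Agpat5, at chr8:18846279-18884413 on the plus strand, differed past the threshold without stimulation. It was at 6.04, 6.31 and 5.95 RPKM in unstimulated WT and 12.1, 7.92 and 8.04 in unstimulated KO, without overlap, and the KO library numbered 1 stood apart from the other two. At 48 h it was at 28.3, 29.3 and 28.5 RPKM in WT and 30.5, 29.0 and 28.1 in KO, which overlapped. The unstimulated log2 difference was 0.52 (SE 0.12, limma adjusted p = 0.0145) and 0.34 (limma adjusted p = 0.0149) without the KO libraries numbered 1. The call was kept in 16 of 21 alternatives. Fits that lost it included those without unstimulated WT library 1 (limma adjusted p = 0.0517) or 3 (limma adjusted p = 0.0554). The fit without the WT libraries numbered 1 and 2 also lost it. The responses to stimulation, 2.06 in WT and 1.57 in KO, differed by −0.50 (limma adjusted p = 0.119).

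Agpat3, at chr10:78271563-78351700 on the minus strand, was at 57.3, 54.4 and 54.0 RPKM in unstimulated WT and 59.6, 57.3 and 57.5 in unstimulated KO. At 48 h it was at 96.2, 90.0 and 86.0 RPKM in WT and 103, 105 and 109 in KO, with the KO libraries above. The log2 difference at 48 h was 0.22 (SE 0.058, limma adjusted p = 0.0216), and it passed in 16 of 21 alternatives, with adjusted p from 0.00947 to 0.0989. Leaving out WT library 2 or 3, or KO library 2 or 3, of the stimulated groups ended the call, as did leaving out the WT libraries numbered 1 and 2 (limma adjusted p = 0.0549). Agpat2 was lower in KO means in both states, at 8.96 ± 1.54 against 6.76 ± 1.82 RPKM and 12.5 ± 0.555 against 10.1 ± 0.258, and did not pass the threshold in either (limma adjusted p = 0.109 and 0.188).

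The lipins remove the phosphate from phosphatidic acid to give diacylglycerol. Lpin1 fell with stimulation, from 3.80, 3.41 and 4.15 to 2.03, 1.79 and 1.72 RPKM in WT (log2 change −0.75, SE 0.15, limma adjusted p = 0.000414), the deepest fall among the tested members in WT. In KO it fell from 3.204, 3.335 and 3.541 to 2.83, 1.28 and 1.93 RPKM, with no overlap between the states (log2 change −0.57, SE 0.15, limma adjusted p = 0.00342). Lpin2, at chr17:71183978-71249818 on the plus strand, was at 2.49, 2.80 and 2.64 RPKM in unstimulated WT and 3.39, 2.94 and 2.54 in unstimulated KO, and at 1.86, 1.84 and 1.75 in stimulated WT and 2.61, 2.59 and 2.83 in stimulated KO. It fell in WT (log2 change −0.37, SE 0.096, limma adjusted p = 0.00274, or 0.102 without the WT libraries numbered 1 and 2), and the change in KO was −0.10 (limma adjusted p = 0.339). At 48 h the KO libraries lay above the WT libraries by 0.38 (SE 0.096, limma adjusted p = 0.0153), which was lost without stimulated WT library 3 (0.0591), stimulated KO library 3 (0.0722) or the WT libraries numbered 1 and 2 (0.121). The difference between the responses was 0.27 (limma adjusted p = 0.292).

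**Figure D4:**
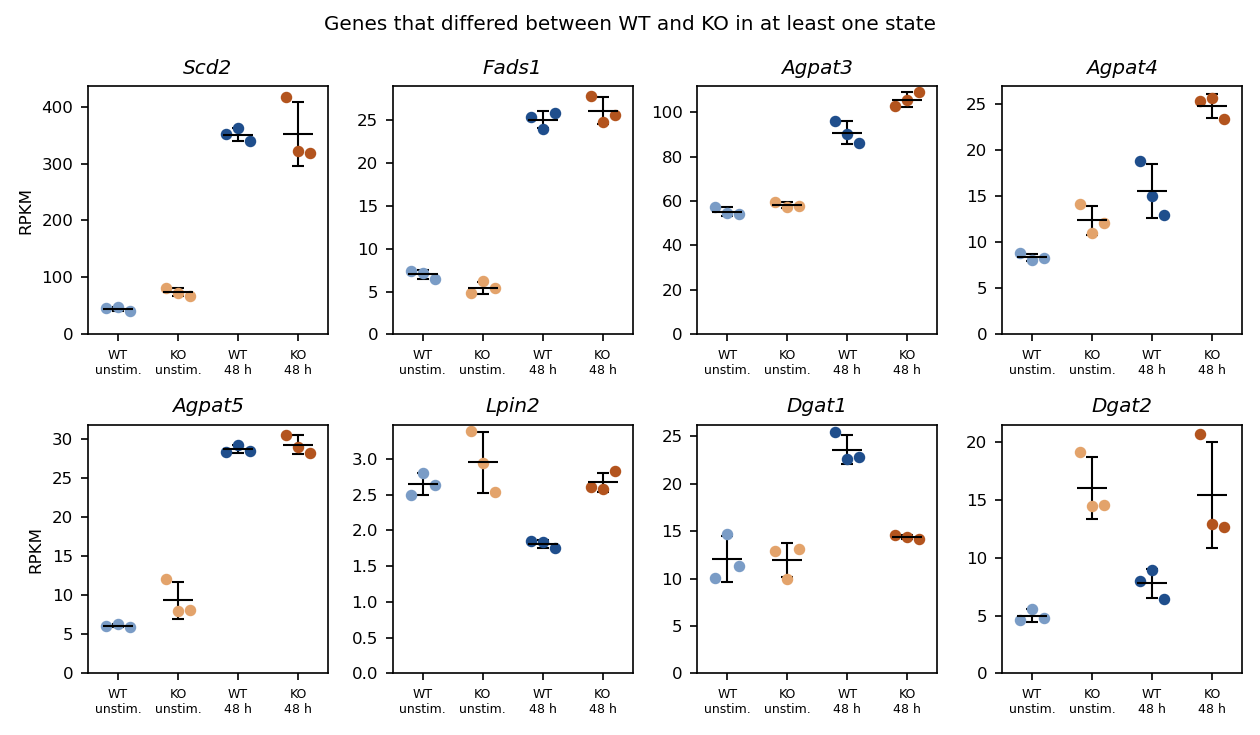
Points show RPKM (vertical axes from 0) of the 8 genes called between WT and KO in at least 1 state, 3 libraries in each of 4 groups, with the group mean and SD as bars. Dgat2 and Agpat4 lie higher in KO libraries in both states, and Dgat1 lies lower in KO libraries at 48 h and overlaps without stimulation.

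Of the 6 tested genes of the droplet coat and of lipolysis, 5 changed with stimulation in WT and 4 in KO, and none passed the threshold between genotypes in limma or in limma-voom on whole reads (in limma 2 had an unadjusted p under 0.05 without stimulation and 1 at 48 h). Plin3, a coat protein of small droplets, fell from 16.97, 15.12 and 15.48 to 10.9, 9.63 and 8.62 RPKM in WT (log2 change −0.66, SE 0.10, limma adjusted p = 5.37e-05) and from 15.0, 15.4 and 15.6 to 11.3, 8.45 and 9.002 in KO (log2 change −0.63, SE 0.10, limma adjusted p = 7.4e-05). Plin2, the coat protein that follows droplet content in most cells, fell from 10.9 ± 1.31 to 7.58 ± 1.16 RPKM in WT and from 9.62 ± 0.501 to 6.02 ± 2.01 in KO. The Plin2 fall in WT (log2 change −0.47, limma adjusted p = 0.0171) was lost without unstimulated WT library 1 (0.0632), stimulated WT library 2 (0.0550) or 3 (0.0609), or the WT libraries numbered 1 and 2 (0.0861). At 48 h Plin2 was at 8.92, 7.05 and 6.78 RPKM in WT and 8.28, 4.44 and 5.34 in KO, and its log2 difference was −0.32 (limma adjusted p = 0.193), or −0.54 (limma adjusted p = 0.0165) without the stimulated KO library 1. Scd1 above showed the same library standing apart.

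Among lipolysis genes, Lipe, the hormone-sensitive lipase, rose from 4.25 ± 0.342 to 12.3 ± 1.13 RPKM in WT and from 3.86 ± 0.194 to 10.9 ± 1.96 in KO. Lipe shares 809 exon bases with 4732471J01Rik on the other strand, so its reads may not all be its own. Pnpla2, the first triglyceride lipase, rose from 18.8 ± 1.33 to 26.3 ± 1.50 RPKM in WT, and in KO it was at 21.1 ± 0.159 and 23.6 ± 0.941 (log2 change 0.15, limma adjusted p = 0.0550, or 0.0485 without unstimulated WT library 1). Its activator Abhd5 passed in neither genotype and stayed between 4.48 and 5.96 RPKM in all 12 libraries. Hilpda, an inhibitor of Pnpla2, fell from 11.2 ± 1.05 to 8.54 ± 1.38 RPKM in WT and from 12.2 ± 1.57 to 8.87 ± 0.934 in KO. The Hilpda fall in WT (log2 change −0.37, limma adjusted p = 0.0133) was lost without unstimulated WT library 2 (0.0598) or stimulated WT library 3 (0.0702).

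Mgll, the monoglyceride lipase that ends lipolysis, was too low for the filter but is given for its reads. There were 10, 26 and 15 reads in unstimulated WT and 39, 34 and 45 in unstimulated KO, and 1, 0 and 0 in stimulated WT and 26, 26 and 29 in stimulated KO. The KO libraries lay above the WT libraries in both states at levels of at most 0.37 RPKM. In the fit without a filter the log2 difference was 0.23 (SE 0.042, limma adjusted p = 0.0107) without stimulation and 0.26 (SE 0.042, limma adjusted p = 0.00388) at 48 h.

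Of the uptake genes, Fabp5, a cytosolic fatty acid binding protein, rose from 45.6 ± 2.77 to 133 ± 5.31 RPKM in WT and from 40.3 ± 4.40 to 115 ± 6.04 in KO. Its KO means were lower in both states without passing the threshold (limma adjusted p = 0.172 and 0.0846). The surface receptor Cd36 was at 0.38, 0.43 and 0.47 RPKM in unstimulated WT and 0.09, 0.25 and 0.21 in unstimulated KO. The KO libraries lay below there, and the groups overlapped at 48 h. For Cd36 the fit without a filter gave a log2 difference of −0.274 (SE 0.0879, limma adjusted p = 0.1004) without stimulation. At 48 h the limma adjusted p of Cd36 was 0.6703, so it passed the threshold in neither state. Lpl had at most 4 reads in any library.

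**Figure D5:**
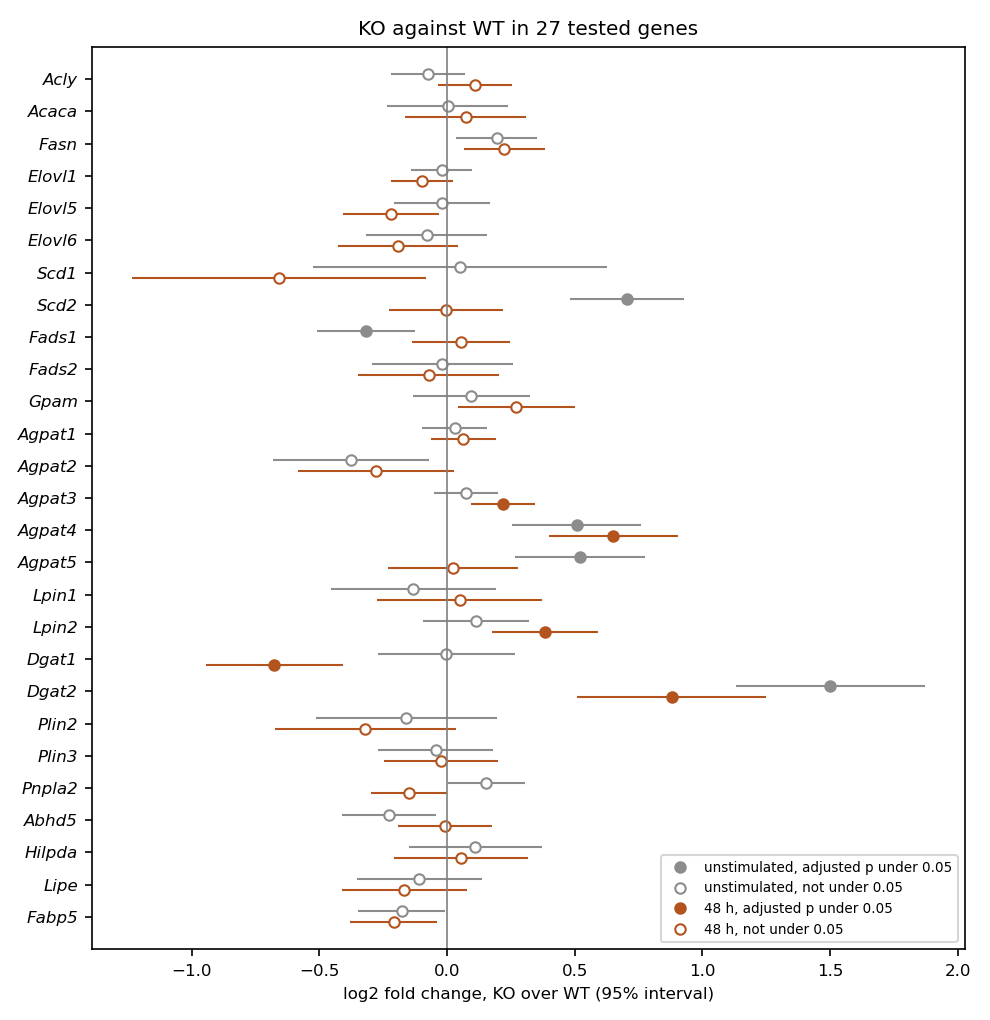
Points show the log2 fold change of KO over WT (horizontal axis, log2(RPKM + 1) scale) of 27 tested genes, unstimulated (grey) and at 48 h (orange), with 95% intervals, and filled points have an adjusted p under 0.05. Dgat2 lies farthest to the right in both states (1.50 and 0.88), Dgat1 is the filled 48 h point below 0 (−0.68), and most intervals cross 0.

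Beyond these genes, 101 others of the same pathways were looked up, and 66 were tested. Without stimulation 3 were higher and 5 lower in KO cells, and at 48 h 4 were higher and 10 lower, where 10.2% and 17.6% of all tested genes passed in either direction. Their median log2 changes were −0.026 and −0.003, beside −0.021 and −0.004 over all genes, so both the counts and the medians were near the background. Lclat1, an acyltransferase of lysocardiolipin and other lysophospholipids, differed most among those named here: without stimulation it was at 42.7, 38.8 and 37.3 RPKM in WT and 27.1, 22.9 and 17.9 in KO (log2 change −0.80, SE 0.13, limma adjusted p = 0.00194), and at 49.3, 46.9 and 59.4 against 22.0, 19.9 and 18.6 at 48 h (log2 change −1.32, SE 0.13, limma adjusted p = 2.12e-05). The KO libraries lay below the WT libraries in both states, opposite to Agpat4.

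Without stimulation G6pdx, which makes NADPH in the pentose phosphate path, was higher (log2 change 0.46, limma adjusted p = 0.0131), as was the mitochondrial acyl carrier protein Ndufab1 (0.24, limma adjusted p = 0.0426). The elongation dehydratase Hacd3 was lower (−0.43, limma adjusted p = 0.0271). The cholesterol acyltransferase Soat1 was lower in both states (−0.33, limma adjusted p = 0.0334 without stimulation and −0.33, limma adjusted p = 0.0219 at 48 h). At 48 h the diacylglycerol kinase Dgkz (0.31, limma adjusted p = 0.0104), the mitochondrial reductase Mecr (0.25, limma adjusted p = 0.0339) and the acyl-CoA synthetase Acsl5 (0.22, limma adjusted p = 0.0285) were higher. The nuclear receptor Rxra (−0.52, limma adjusted p = 0.0396), the lysophospholipid acyltransferase Lpcat4 (−0.46, limma adjusted p = 0.00362) and the synthetase Acsl4 (−0.38, limma adjusted p = 0.00722) were lower.

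Several of these calls depended on single libraries or on the fit. Of 21 alternatives, Ndufab1 passed in 7, Rxra in 10, Hacd3 and Mecr in 12 each, Acsl5 in 13, G6pdx in 17, Dgkz in 19, Acsl4 in 20 and Lpcat4 in 21, and Soat1 in 11 without stimulation and 15 at 48 h. Without the WT libraries numbered 1 and 2 every one of them but Lpcat4 lost its call, with limma adjusted p from 0.0616 (Dgkz) to 0.303 (Hacd3), and so did the unstimulated call of Lclat1 (0.144). Without the KO libraries numbered 1 the calls of G6pdx (limma adjusted p = 0.0560), Ndufab1 (0.0517), Mecr (0.0519) and Acsl5 (0.0551) were lost.

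Srebf1, which encodes the main lipogenic SREBP, rose with stimulation from 19.3 ± 0.266 to 38.5 ± 5.65 RPKM in WT and was not called between genotypes (limma adjusted p = 0.142 and 0.144).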

How the data were processed

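RNA was sequenced from 12 libraries of sorted mouse Treg cells, made from 600 ng of RNA each with a stranded mRNA kit, per the labels' protocols. FastQC, STAR, featureCounts of Subread and DESeq2, and the build mm10, come from the submitters' processing notes, which give no versions or roles. Whether counting used strand, what was done with multiply matching reads, and which annotation release served were not given in the sources used here. By gene and library, the authors deposited 1 RPKM value, with exon length and coordinates. RPKM times length came to whole multiples of 1 read for 100% of values (within 0.01), which gave the reads printed here and the depths, from 22731823 to 32055383 per library.

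The 27 entries with a date in place of a gene symbol (0.185% to 0.284% of reads) were left out. Genes with at least 1 RPKM in 3 libraries (10406) were tested with limma 3.58.1 (trend, R 4.3.3) on log2(RPKM + 1), with 1 mean for each of the 4 groups over all 12 libraries, no block, and Benjamini-Hochberg adjustment within each of 5 contrasts at a threshold of 0.05: KO against WT in each state, 48 h against unstimulated in each genotype, and the interaction. The fit was run on simulated reads with known changes and the same spread for every gene. The interaction was not simulated, nor was a spread that differs between genes or animals. The main fit used RPKM as deposited, and the whole reads recovered from them were used in an alternative fit. The pseudocount of 1 shrinks the changes of low genes. Alternatives were a pseudocount of 0.1, no filter, a median-ratio rescaling, limma-voom on the whole reads, replicate blocks, the 6 libraries of a contrast alone, a term for Y-linked transcripts, and fits without chosen libraries or without each library in turn.

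Deviations of same-numbered libraries correlated between states at 0.274, 0.19 and 0.11 in KO and at 0.075, 0.134 and 0.146 in WT. Between genotypes the correlations were all lower, from -0.115 to 0.048. Y-linked transcripts also marked the same WT numbers in both states. No label says that a number marks the same animals, so the main fit did not take the numbers as pairs. A block by genotype and number was an alternative, and it changed which members were called in the interaction. Of 102 other pathway symbols 101 were matched, 5 of them by an older symbol. The members and gene lists were chosen with earlier results of these data known. Values per library are given for members called in a genotype contrast or the interaction, and for the 2 largest changes per direction with stimulation. Fasn, Plin2, Mgll, Cd36 and, in the closing section, Pparg and Acsbg1 were added after their values were seen. From the other pathway genes those called between genotypes with a mean of at least 5 RPKM were named, at most 4 per direction and contrast. Promoter windows are from RefSeq (GRCm38.p6), for 25 of the 33 members, searched on both strands.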

Additional observations from a re-analysis of the deposited data

Results flagged for a closer look

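For 2 genes the response to stimulation differed between genotypes by the test of the difference itself. For Dgat1 the KO response minus the WT response was -0.67 on the log2 scale (limma adjusted p = 0.0478); the 3 stimulated KO libraries lay below the 3 stimulated WT libraries, while the unstimulated ones overlapped, and the call was kept in 3 of 21 alternatives. For Scd2 the difference was -0.71 (limma adjusted p = 0.0177), kept in 18 of 21 alternatives; here the groups were apart without stimulation and overlapped at 48 h. The background for such calls was 4.62% of all tested genes, and 2 of 27 tested members passed.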

How the results depend on the processing

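Of 4172 values of single genes under 22 alternatives, 3967 kept their side of the threshold, 164 lost it, 41 gained it and 0 called values changed sign. This pool includes genes that were not called and the stimulation contrasts. Genotype and interaction calls of members varied more. They were kept in 3 (Dgat1, interaction) to 21 (Dgat2 in both states) of 21 alternatives, with Fads1 without stimulation in 5. The 5 members called between genotypes without stimulation became 3 with the 6 libraries alone, 1 without the WT libraries numbered 1 and 2, 3 with the Y-linked term, 3 without the KO libraries numbered 1, and 2 to 5 with 1 library left out. The 5 called at 48 h became 8 with the 6 libraries alone, 3 without the WT libraries numbered 1 and 2, 8 without the KO libraries numbered 1, and 3 to 7 with 1 library left out. Leaving out the WT libraries numbered 1 and 2 leaves 1 WT library per state, which is assumed to vary like the other groups. The 2 interaction calls became 1 with a pseudocount of 0.1, no filter, the median-ratio rescaling or the Y-linked term, 0 without the WT libraries numbered 1 and 2, and 0 to 3 with 1 library left out. The cause of these moves was not tested, beyond the smaller number of libraries. The stimulation counts ran from 22 to 28 in WT and 22 to 25 in KO.

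With a replicate block by library number 4 members were called without stimulation, 5 at 48 h, 26 and 22 with stimulation in WT and KO, and 1 in the interaction. With a block by genotype and number the interaction count was 2, with Dgat2 called (adjusted p = 0.0284) and Dgat1 not (0.0557). The median-ratio rescaling moved the median log2 change of all genes with stimulation from 0.106 to 0.02 in WT and from 0.117 to 0.022 in KO, and the share of higher calls among all genes in unstimulated KO against WT from 42.7% to 57.5%; for the members that split was 4 higher and 0 lower after it. At these depths low genes such as Mgll and Cd36 are limited by counting error.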

Other observations

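Some other genes of lipid metabolism lay below the level at which genes were named and were picked after their values were seen. Pparg, the nuclear receptor that drives fat storage in adipocytes, was at 0.40, 0.76 and 0.75 RPKM in unstimulated WT and 2.97, 2.88 and 2.44 in unstimulated KO, and at 1.50, 1.23 and 1.72 in stimulated WT and 4.40, 2.83 and 3.05 in stimulated KO. The KO libraries lay above the WT libraries in both states, by 1.21 (SE 0.14, limma adjusted p = 0.000213) and 0.82 (SE 0.14, limma adjusted p = 0.00175) on the log2 scale. In unstimulated KO libraries the 6 adipocyte markers summed to 1.11 to 1.77 RPKM against 0.604 to 1.07 in WT, and at 48 h to at most 0.082 in any library. The 8 dendritic cell markers summed to 176 to 264 RPKM in KO against 148 to 175 in WT without stimulation, and to 34.1 to 46.1 against 25.9 to 29.6 at 48 h. The 12 myeloid markers went the other way, at 21.4 to 23.3 RPKM in KO against 31.4 to 38.9 in WT without stimulation. At 48 h these myeloid markers summed to 0.867 to 1.88 in KO against 3.04 to 3.67 in WT. The part of other cells in the Pparg differences was not tested.

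Acsbg1, an acyl-CoA synthetase, was lower in KO cells, at 10.8 ± 0.939 against 4.92 ± 1.12 RPKM without stimulation (log2 change -1.01, limma adjusted p = 0.000822) and 1.55 ± 0.286 against 0.555 ± 0.186 at 48 h (log2 change -0.72, limma adjusted p = 0.00419).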
